A study of Mus musculus with 2 samples.

Results

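The genes described here are 9 genes that mark microglia, the macrophages of the brain and spinal cord: Fcrls, P2ry12, P2ry13, Tmem119, Gpr34, Olfml3, Siglech, Trem2 and Tyrobp. They were followed in macrophages of the mouse dorsal root ganglion (DRG), the cluster of sensory neuron cell bodies beside the spinal cord. A cell was taken as a macrophage when the complement genes C1qa, C1qb and C1qc together held at least 0.5% of its UMIs (unique molecular identifiers, each a counted transcript), and macrophages were classed by their UMIs of Ccr2, the chemokine receptor of monocytes and of cells that derive from them. Among 481, 772 and 1415 cells of 3 male mice, 1484 (55.6%) were macrophages, of which 745 had 0 Ccr2 UMIs, 163 had 1 and 576 had 2 or more. Only 11 cells lay between 0.4% and 0.6%, close to the limit. All 9 genes were among the 16819 gene symbols of the deposited matrix.

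The cells were CD45+ immune cells without DAPI uptake, sorted from the pooled DRGs of wild-type, naive BALB/cAnNRj mice after perfusion. The mice, 3 male and 3 female, were told apart by hashtag antibodies and shared a single lane of the 10x 3′ v3 assay, so sex and animal were the only labelled differences between the cells, and no condition or treatment was compared. The cells of the deposited matrix all carried a male hashtag, and 1073 cells with a female hashtag, of which 610 were macrophages, gave the same measures in animals that the choice of cells did not use. Macrophages had a median of 8621.5 UMIs in the male and 7755 in the female mice, and the male medians were 8420, 8451 and 8945.5 UMIs with 0, 1 and at least 2 Ccr2 UMIs. The male sums per mouse and Ccr2 class held 64120 to 3557590 UMIs, the smallest being that of the 7 cells of mouse 1 with 1 Ccr2 UMI.

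Microglia and the macrophages of other tissues descend from overlapping lineages, and a small group of transcripts that are high in unperturbed microglia is widely used to tell microglia from macrophages that enter the nervous system. Most of these transcripts encode surface proteins: receptors for nucleotides and lipids, sialic acid or Fc receptor-like proteins, and the Trem2 receptor with its signalling adaptor Tyrobp (DAP12). Border-associated macrophages, which live around vessels and in the meninges, share part of this group and add scavenger receptors such as Mrc1 and Cd163.

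The genes that were lower in macrophages with more Ccr2 (below) are shown first by a stretch of their promoters. Fcrls, Siglech and P2ry12, which passed the main test in the male mice, are shown because a short sequence was found in each. These genes were picked by that test, and the match did not follow every call, since P2ry12 was not called in the female mice and, with the mouse as a block, P2ry13, which lacks the sequence, and Gpr34, which was not searched, were also called lower in the male mice. Promoters were available for 6 members (RefSeq, GRCm38.p6), and the 250 bases before each start were searched on both strands. The exact letters of a form of the ETS factor core, GGAAGT, were searched, and those of the longer PU.1 core, GAGGAAGT, which contains it. PU.1 is the ETS factor that macrophages and microglia depend on. The ETS core was found in 3 promoters, those of Fcrls, P2ry12 and Siglech, and not in those of P2ry13, Olfml3 and Trem2, against 19.7% of 32851 promoters of the same length. The longer core was found in 0 of the 6, against 2.44% of all promoters. The lines below give 30 bases around each match on the strand of the gene, with the match in capitals (ACTTCC is the core on the other strand).
Fcrls, chr3:87263582-87263611, minus strand, first base of the match 75 bases before the start: gacaactttgccACTTCCtttttttcctat
P2ry12, chr3:59263019-59263048, minus strand, 51 bases before the start: agctaacaagaaGGAAGTtccccagtgaca
Siglech, chr7:55768016-55768045, plus strand, 156 bases before the start: tgtgcaacaagcACTTCCcagtctgagcca
For comparison, the promoter of Trem2, whose level did not pass the test between the Ccr2 classes, is given whole. It has no capitals because neither exact sequence was found in it. The shorter GGAA, which both sequences contain, does occur in it, and other forms of the core were not searched.
Trem2, chr17:48346151-48346400, plus strand: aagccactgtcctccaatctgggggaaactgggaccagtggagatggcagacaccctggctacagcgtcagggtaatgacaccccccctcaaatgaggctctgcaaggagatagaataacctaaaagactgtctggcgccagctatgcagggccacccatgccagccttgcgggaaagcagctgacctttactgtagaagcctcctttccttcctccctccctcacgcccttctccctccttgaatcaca
These matches are a description of the letters in the window. No binding was measured, and other starts of the same genes were not searched. In the GENCODE M21 annotation, which places starts of Fcrls further upstream, the Fcrls match lies in an exon of Fcrls itself, and the P2ry12 match lies in an exon of Med12l on the opposite strand.

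All 9 members were present in DRG macrophages above the level that free RNA gave in the same lane. That level was read from B-like cells (a cluster of 134 cells with raised Cd79a, Ms4a1 and Ebf1), which should lack these genes, after every cell had been thinned to 2000 UMIs to set the depth equal (median depth before thinning 3203.5 UMIs in B-like cells). A gene was called present when its share of cells with a UMI was above that of B-like cells in each of the 3 male mice and the 95% Clopper-Pearson intervals of the pooled shares did not overlap. These intervals cover counting error only.

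**Figure D1:**
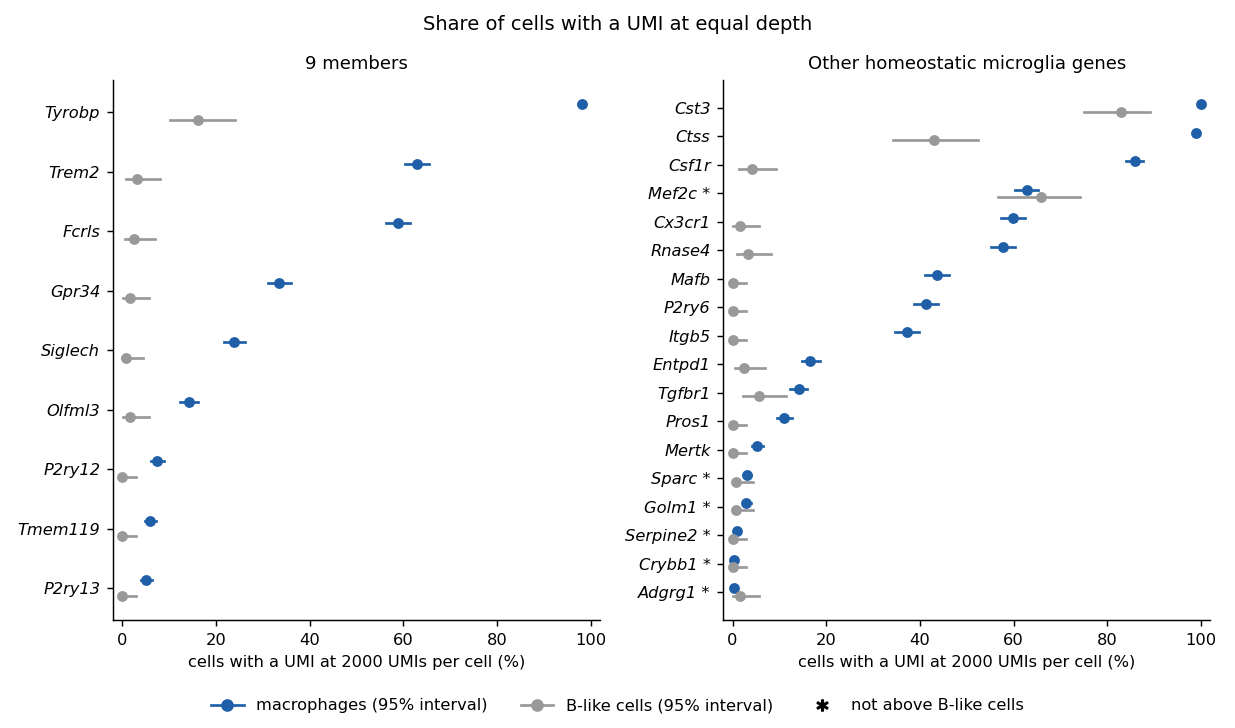
The share of cells with at least 1 UMI after thinning to 2000 UMIs (x axis, %) is plotted for the 9 members (left) and for most of the other homeostatic microglia genes (right), in male macrophages (blue) and in B-like cells (grey), with bars for the 95% interval of the pooled share. Every member lies to the right of B-like cells, from 5.16% for P2ry13 to 98.1% for Tyrobp, while the genes with an asterisk do not lie clear of them.

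The purinergic receptor P2ry12, which senses ADP and steers microglial processes, had a UMI in 7.36% of 1454 thinned macrophages (95% interval 6.07% to 8.82%) and in 0 of 123 B-like cells, whose interval reached 2.95%. At full depth the share of macrophages with a P2ry12 UMI was 27.3% ± 1.41 (SD, n = 3 mice), against 0 of 134 B-like cells, which allows a share of up to 2.24% (3 counts of the total, another bound than the interval above). P2ry12 transcripts were thus found in a minority of cells at this depth, and 315 of the 413 positive macrophages had a single UMI. Its neighbour P2ry13, a second ADP receptor, had a share of 5.16% at equal depth (4.08% to 6.42%) and 21.3% ± 1.68 at full depth (SD, n = 3).

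Tmem119, a membrane protein often used as the marker that sets microglia apart, had a UMI in 5.91% of thinned macrophages (4.76% to 7.25%) and 17.6% ± 4.74 at full depth (SD, n = 3), with 0 UMIs in B-like, T/NK-like and monocyte-like cells. The most Tmem119 UMIs in 1 macrophage were 12, and 90 cells had 2 or more. A UMI of both P2ry12 and Tmem119 was found in 90 macrophages (6.06%), of which 14, 16 and 60 came from mouse 1, 2 and 3 and 51, 11 and 28 had 0, 1 and at least 2 Ccr2 UMIs. Double-positive cells therefore occurred in every mouse and in every Ccr2 class. These classes held 745, 163 and 576 macrophages, and the mice 481, 772 and 1415 cells of all types. P2ry12 was found in 34.0% ± 9.94 of macrophages with a Tmem119 UMI and 25.7% ± 2.75 of those without (SD, n = 3). After thinning these shares were 16.2% ± 14.8 and 7.08% ± 0.76, higher in 2 of 3 mice. Whether the genes occurred together more often than their separate shares give was not tested.

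Gpr34, a lysophosphatidylserine receptor, reached 33.5% of thinned macrophages (31.1% to 36%), and Siglech, a sialic acid-binding receptor that signals through Tyrobp, reached 23.9% (21.7% to 26.1%). Olfml3, a secreted matrix protein, reached 14.2% (12.4% to 16.1%). Fcrls, an Fc receptor-like scavenger receptor, reached 58.9% (56.3% to 61.4%) and Trem2, a receptor for lipids and lipoproteins, 62.9% (60.4% to 65.4%). Tyrobp, the adaptor that passes on signals of Trem2 and Siglech, was found in 98.1% (97.3% to 98.8%), and also in 16.3% of B-like cells (10.2% to 24%).

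Counted per cell, macrophages had a UMI of more of these genes than the other classes compared. Of the 8 members without Tyrobp, a thinned macrophage had on average 2.13 ± 0.05 with a UMI (SD, n = 3 mice), while the mean was 0.0934 ± 0.0578 in B-like, 0.0968 ± 0.0678 in monocyte-like, 0.0971 ± 0.0404 in T/NK-like and 0.247 ± 0.0412 in DC-like cells. The median in macrophages was 2, and Trem2 (62.9%) and Fcrls (58.9%) had the largest shares of the 8 genes. Only 116 of 1454 macrophages (7.98%) had none of the 8, and 171 (11.8%) had 4 or more. The mean was lower in each class with more Ccr2, with 2.43, 2.46 and 2.33 genes per cell in mouse 1, 2 and 3 at 0 Ccr2 UMIs and 1.84, 1.71 and 1.76 at 2 or more. These ranges did not overlap, and cells with 1 Ccr2 UMI lay between them at 2.17 ± 0.07 (SD, n = 3). Fcrls, whose share was lower in cells with more Ccr2 (below), is among the 8, and the count without it was not made.

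The wider homeostatic signature of microglia was present in part. Of 22 other homeostatic microglia genes, 14 were present, 6 were not above the background and 2 had 0 UMIs. Sall1, the transcription factor that maintains microglial identity, and Slc2a5, the fructose transporter of microglia, had 0 UMIs in all 1484 macrophages, which allows a share of cells with a UMI of up to 0.202% (3 counts of the total). Both were counted in the larger matrix of 31053 genes and were not among the symbols of the smaller one. The genes present included Cx3cr1 (59.8% of thinned macrophages against 1.63% of B-like cells), the fractalkine receptor, and Csf1r (85.9% against 4.07%), the growth factor receptor that macrophages need.

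Sparc, a matrix protein of microglia and of fibroblasts, was not above the background, with a UMI in 3.03% of thinned macrophages (2.21% to 4.04%) against 0.813% of B-like cells (0.0206% to 4.45%). The other genes not above the background were Crybb1, Adgrg1, Golm1, Serpine2 and Mef2c. Adgrg1, the adhesion receptor Gpr56, had 9 UMIs in all macrophages, and Crybb1, a crystallin, had 36. Mef2c stands apart from these, because its share was high in macrophages (62.8%) and in B-like cells (65.9%), which use this transcription factor themselves, so B-like cells do not give its free RNA level. With 0 positive cells among 123 thinned B-like cells the interval still reached 2.95%, so a gene in a smaller share of macrophages than this could not be told from the background.

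Transcripts typical of other cells were found in the macrophages. The neutrophil genes S100a8 and S100a9 had a UMI in 88.5% and 97.2% of them, with a median of 2 and 4 UMIs, and the fibroblast gene Dcn in 28.8%. The most UMIs in any macrophage were 1531 for S100a8 and 2144 for S100a9. Whether these transcripts came from free RNA or from doublets was not tested. Of the other markers checked (Cd79a, Cd3e, Trbc2, Ly6c2, Plac8, Xcr1, Flt3, Cldn5 and Mki67), none reached more than 5.39% of macrophages. The part of free RNA in the levels of the members was not tested beyond the comparison with B-like cells.

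Across the named immune classes, macrophages had the highest level of every member except Tyrobp. Levels are given as CPM, the UMIs of a gene per 1000000 UMIs of the summed cells of a mouse. In CPM, the 3 male mice lay above all 3 values of B-like, T/NK-like and DC-like cells for 9 of 9 members, and above those of monocyte-like and neutrophil-like cells for 8 of 9. Over all 10257 genes with enough UMIs, the share with macrophages higher and no overlap was 23.2% against B-like, 21.1% against T/NK-like, 24.9% against DC-like, 20.8% against monocyte-like and 57.6% against neutrophil-like cells. Cell types came from clusters made without the 9 genes, and the levels between them are a description with no test. Within such a sum, fewer positive cells and less RNA per cell cannot be told apart.

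**Figure D2:**
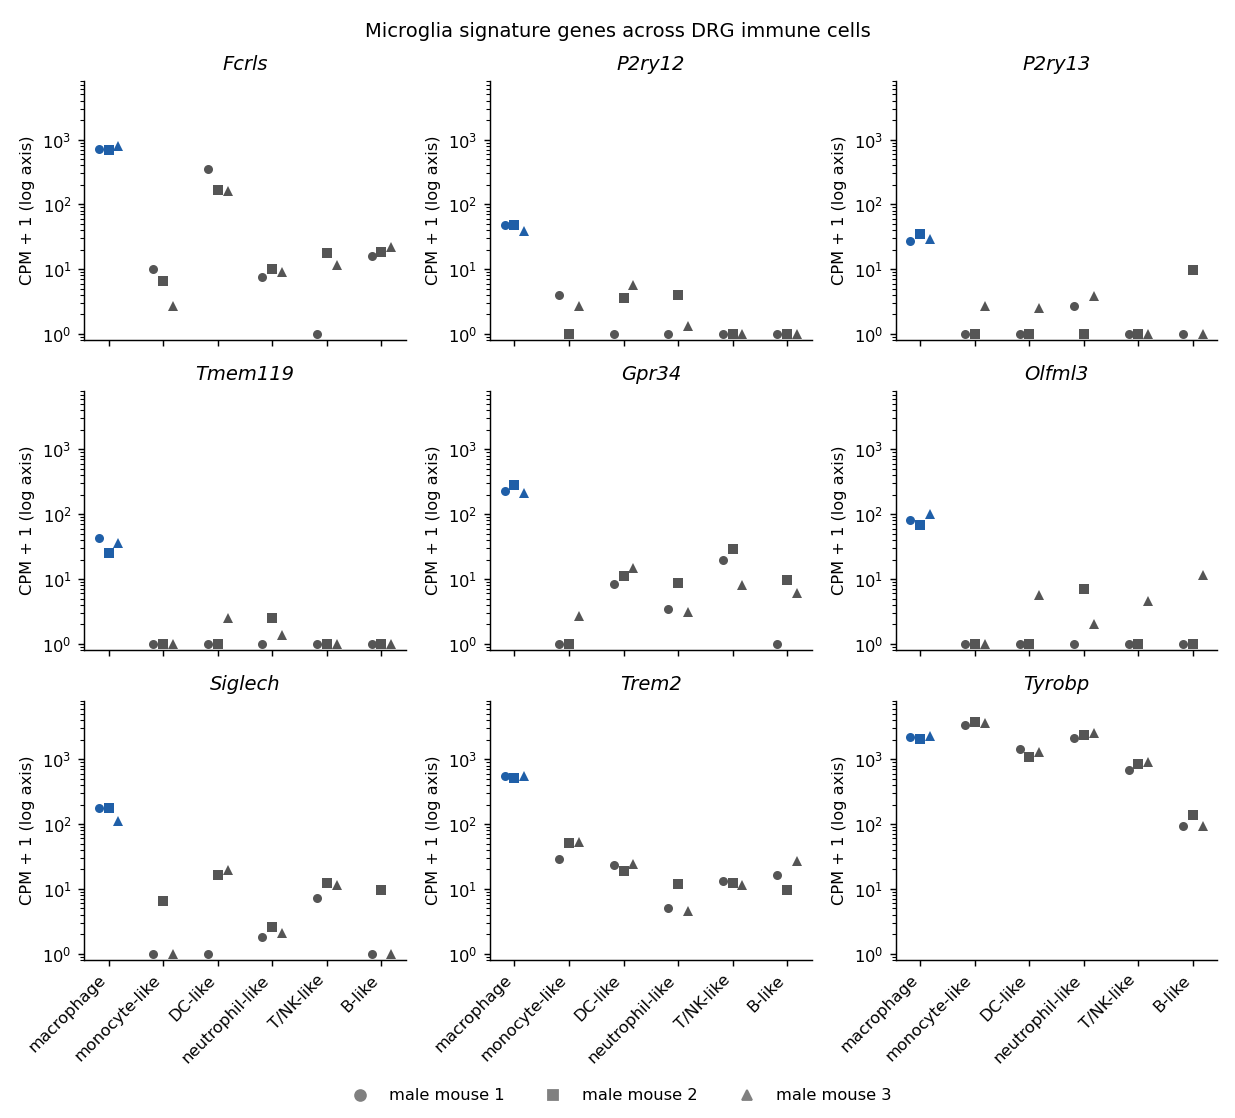
For each member, the level (CPM plus 1, log axis) is plotted per male mouse in macrophages (blue) and in 5 other cell classes (grey), with 1 symbol per mouse. Macrophages lie above the other classes for 8 genes, Fcrls is also seen in DC-like cells, and Tyrobp is high in monocyte-like and neutrophil-like cells.

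Fcrls had 714, 699 and 789 CPM in the macrophages of mouse 1, 2 and 3 and 352, 165 and 162 CPM in DC-like cells. All other classes had means of 5.49 to 17.7 CPM, and from B-like over T/NK-like and neutrophil-like to monocyte-like cells each overlapped with the next. DC-like cells were thus the class next to macrophages for Fcrls and lay apart from the rest. Their transcripts were concentrated in few cells. Of 98 DC-like cells, 30 had an Fcrls UMI, and 14 cells with 5 or more held 237 of the 263 UMIs. The 30 cells also differed from the 68 without Fcrls in other markers. Cd209a, a gene of type 2 conventional DCs, was found in 86.7% of the 30 and 35.3% of the 68, and Mrc1 in 80% and 26.5%, while Xcr1, a gene of type 1 conventional DCs, was found in 10% and 64.7%. Other listed DC genes were also less often found with Fcrls, namely Flt3 (30% and 51.5%) and Zbtb46 (16.7% and 23.5%). Macrophage genes were somewhat more often found, with C1qa in 50% and 42.6% and Trem2 in 16.7% and 11.8%. The markers therefore do not settle the type of these 30 cells. The median share of UMIs in the C1q genes was 0.014% in the cells with Fcrls and 0.0073% in those without, both far under the limit for macrophages. These groups were formed on Fcrls after its values had been seen, and the part of doublets was not tested.

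Siglech had 176, 177 and 110 CPM in macrophages and means of 1.14 to 11.3 CPM in the other named classes. Of these, DC-like, T/NK-like, B-like and monocyte-like cells overlapped in order of their means with the next, as did monocyte-like with neutrophil-like cells. A further source lay in an unnamed cluster that proliferation genes led. There, 13 of 87 cells that were not macrophages had a Siglech UMI, and 11 cells with 5 or more held 198 of its 204 UMIs, with up to 32 in 1 cell. In the macrophages the most Siglech UMIs in 1 cell were 9. Of 6 listed markers of plasmacytoid DCs, a cell type known for Siglech, all 11 cells had a UMI of Bst2, Ccr9, Tcf4, Cox6a2 and Klk1, and 5 of the 11 had one of Ly6d. Among 74 cells of that cluster without Siglech, Bst2 and Tcf4 were found in 43 each, Ly6d in 6, Ccr9 in 1, and Cox6a2 and Klk1 in 0. These cells were singled out after their Siglech values had been seen. In macrophages, of the 6 plasmacytoid DC genes listed, only Bst2 was above the background, while Ccr9 had 4 UMIs, Ly6d 8, Cox6a2 13 and Klk1 1. Tcf4 was not near 0, with a UMI in 34.5% of thinned macrophages. Its share was also high in B-like cells (29.3%), so these may not give its free RNA level.

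Trem2 had 542, 520 and 547 CPM in macrophages, with monocyte-like cells next at 27.5, 50.3 and 51.1 CPM. DC-like cells followed with 22.5, 18 and 23.1 CPM, below the monocyte-like values in every mouse. B-like cells had 16.5 ± 8.79 CPM (SD, n = 3), a range that overlapped with DC-like cells, so Trem2 in DC-like cells was not distinguishable from free RNA.

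Tyrobp followed another order. Monocyte-like cells had the highest level, with 3347, 3767 and 3672 CPM, above the 2199, 2059 and 2258 CPM of macrophages in every mouse. Neutrophil-like cells, with 2106, 2358 and 2515 CPM, overlapped with macrophages. DC-like cells had 1262 ± 162 CPM, T/NK-like cells 802 ± 112 and B-like cells 107 ± 26 (SD, n = 3), and these 3 classes did not overlap. Tyrobp also serves the receptors of NK cells and of granulocytes. In these data macrophages lay above DC-like cells for it, below monocyte-like cells, and overlapped with neutrophil-like cells.

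P2ry12, P2ry13, Tmem119 and Olfml3 were close to 0 outside macrophages. P2ry12 had 46.5, 47.7 and 38.2 CPM in macrophages and 0 to 4.63 CPM in DC-like cells, the next class by mean, and 0 UMIs in B-like and T/NK-like cells. P2ry13 had 26, 33.5 and 28.6 CPM in macrophages, with 0 UMIs in T/NK-like cells and 1 UMI in each of the monocyte-like, DC-like and B-like classes. Tmem119 had 42.3, 24.5 and 34.7 CPM in macrophages against 1 UMI in DC-like and 2 UMIs in neutrophil-like cells. Olfml3 had 80.3, 66.3 and 98.3 CPM in macrophages and 0 UMIs in monocyte-like cells. The other classes did not differ from each other beyond their spread for these 4 genes.

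Gpr34 had 230.1, 277.5 and 212 CPM in macrophages. T/NK-like cells were next, with 17.9 ± 10.5 CPM, and DC-like cells had 10.6 ± 3.21 (SD, n = 3), with ranges that overlapped. The monocyte-like cells had a single Gpr34 UMI in 107 cells.

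The genes most like each member were taken from the log2(CPM + 1) of 24 sums (8 cell classes of 3 male mice), over 7247 genes with a mean of at least 10 CPM or among the members. The correlations are a description, since the sums share a lane and are dominated by macrophages against the rest. Here r is Pearson's r over these 24 sums. Tmem119 (r = 0.96) and Serpinf1 (0.95) were among the genes most like P2ry12, and Cp, Slc15a2 and C1qa (0.98 each) were most like Tmem119. C1qa is one of the genes that set the macrophage limit, so its contrast with the other classes was given by that choice. Trem2 was most like Selenop and Apoe (0.98 each) and Cltc (0.97), and Fcrls most like Dab2 (0.95), Tspan8 (0.94) and Mxra7 (0.93). P2ry13 was most like Slc15a2, Ppp1r9a (0.94 each) and Cp (0.93), and Olfml3 most like Fam167b (0.97), Tmem119 (0.96) and Pf4 (0.94). Gpr34 and Siglech shared their closest gene, Hpgds (0.96 and 0.95), as well as Ltc4s (0.93 and 0.92). Second for Gpr34 was C1qc (0.95), which also sets the macrophage limit, and second for Siglech was Gpr34 (0.92). Tyrobp was like Tnfrsf1a, Arl11 and Fcer1g (0.97 each), the last of which encodes another signalling adaptor of Fc receptors.

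Within macrophages, Fcrls, Siglech and P2ry12 were lower in cells with 2 or more Ccr2 UMIs than in cells with 0, while Trem2 and Tyrobp were close to equal. The UMIs were summed per mouse and class, and 7215 genes entered the quasi-likelihood test of edgeR, with Benjamini-Hochberg adjustment and a threshold of 0.05 for the adjusted p. Of the 9 members, 3 fell and 0 rose in the male mice, against 1.43% of all genes called lower and 0.942% called higher. The median log2 fold change of the members was -0.49, and that of all genes -0.01. Because each mouse gave all classes, the fit was also made with the mouse as a block, which called 5 members lower (4.62% of all genes lower, 4.81% higher), adding Gpr34 and P2ry13. The Ccr2 classes fell largely into different clusters, since 71.8% of macrophages with 0 Ccr2 UMIs and 20.1% of those with 2 or more lay in the cluster led by Ccl24 and Egfl7, and 17.3% and 65.8% in the cluster led by Cxcl14 and Tnfsf9. Ccr2 was not taken out before clustering, so this match may in part be given by Ccr2 itself.

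**Figure D3:**
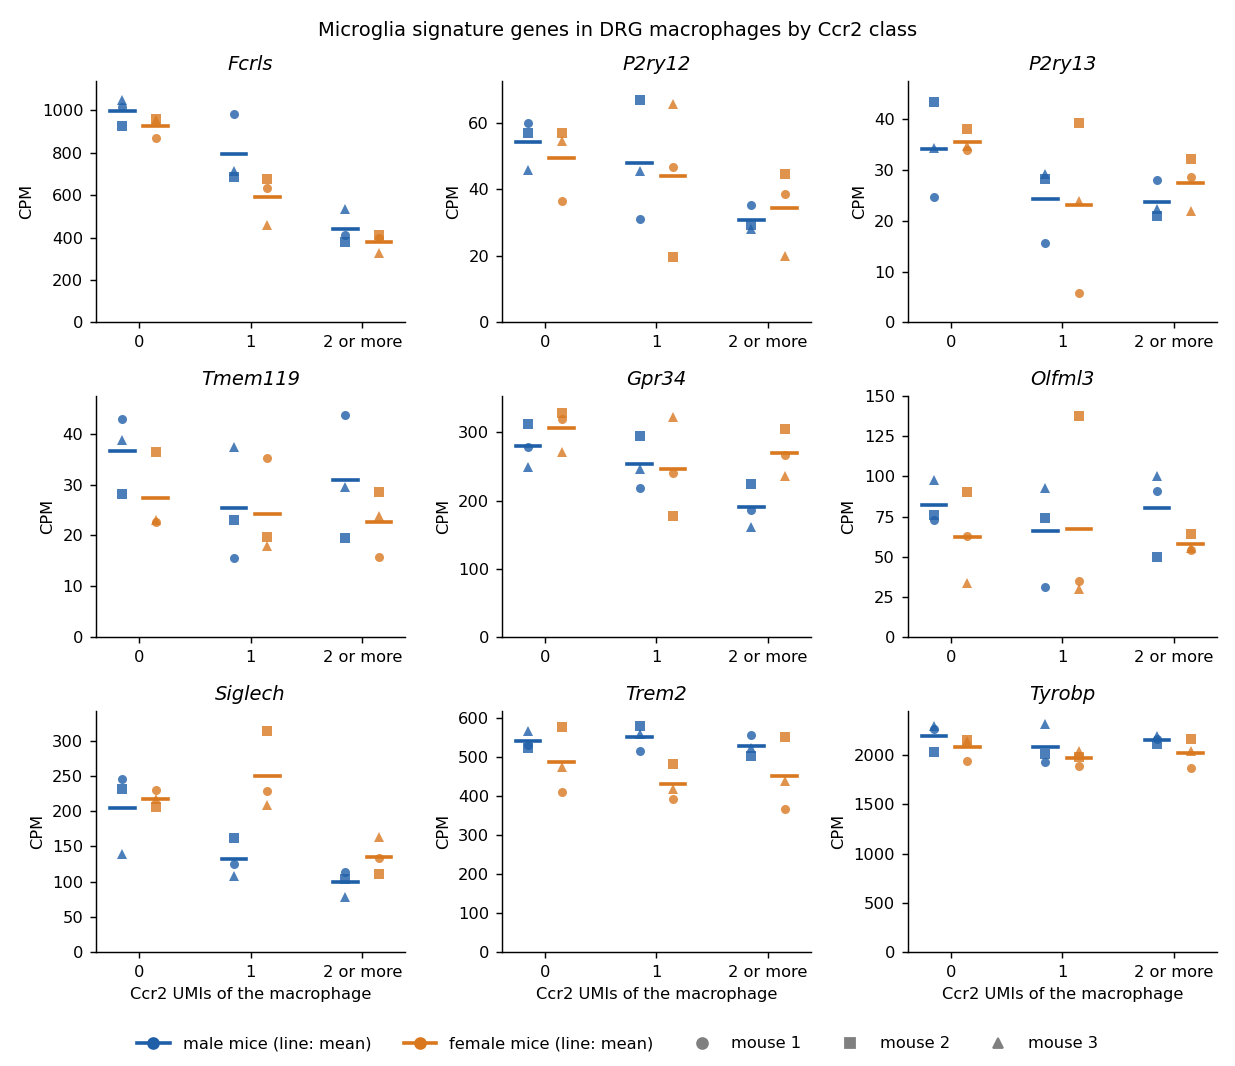
Each panel gives the level of a member (CPM, linear axis from 0) in macrophages with 0, 1 and 2 or more Ccr2 UMIs, with a symbol per mouse and a line for the mean of 3 male (blue) or 3 female (orange) mice. Fcrls drops from a male mean of 997 to 441 CPM, and Trem2 and Tyrobp stay level.

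Fcrls had 1017, 925 and 1048 CPM in mouse 1, 2 and 3 at 0 Ccr2 UMIs, 983, 686 and 714 CPM at 1, and 411, 378 and 534 CPM at 2 or more. The highest and the lowest class did not overlap, and the middle class reached into the range of the highest only through the 7 cells of mouse 1. How many of all genes lacked overlap between these classes was not counted, so overlap here and below is a description. The log2 fold change between the outer classes was -1.11 (SE 0.13, adjusted p = 6.07e-05, edgeR), lower in 3 of 3 mice. At equal depth the share of macrophages with an Fcrls UMI was 70.9% ± 0.04 with 0 and 40.5% ± 2.94 with at least 2 Ccr2 UMIs (SD, n = 3). Fcrls was therefore still found in a large part of the macrophages with Ccr2. It passed the test in each of the 13 alternative settings, at log2 fold changes of -1.22 to -1.04 (adjusted p 5.36e-11 to 0.0233, edgeR or DESeq2).

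Siglech had 246, 231 and 139 CPM at 0 Ccr2 UMIs, 125, 162 and 108 CPM at 1, and 114, 104 and 78.8 CPM at 2 or more. The outer classes did not overlap, although mouse 3 was lower than the others in each class. The log2 fold change was -0.999 (SE 0.22, adjusted p = 0.0158, edgeR), lower in 3 of 3 mice. The call was lost without mouse 1 (adjusted p = 0.233) and without mouse 2 (adjusted p = 0.102, edgeR), with the change still at -0.96 and -0.93. With every cell thinned to 2000 UMIs before the classes were formed, the change was -0.39 (adjusted p = 0.733, edgeR).

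P2ry12 had 59.8, 57 and 45.8 CPM at 0 Ccr2 UMIs, 31.2, 66.8 and 45.4 CPM at 1, and 35.3, 29.3 and 28 CPM at 2 or more. The outer classes did not overlap, and the middle class spanned both. The log2 fold change was -0.76 (SE 0.19, adjusted p = 0.0440, edgeR), lower in 3 of 3 mice. The call was lost without mouse 1, 2 or 3 (adjusted p = 0.229, 0.253 and 0.0859, edgeR) and at a macrophage limit of 1% (adjusted p = 0.0629), with the change between -0.79 and -0.68. DESeq2 gave no adjusted p for it, and it was not tested after thinning, because the filter on low counts removed it. With the mouse as a block the adjusted p was 8.40e-04 (edgeR).

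Gpr34 and P2ry13 had lower means in the cells with more Ccr2 but did not pass the main test. Gpr34 had 278, 312 and 249.6 CPM at 0 Ccr2 UMIs and 186, 224 and 162 CPM at 2 or more, without overlap. Its log2 fold change was -0.49 (SE 0.16, adjusted p = 0.118, edgeR), with a blocked value of -0.50 (adjusted p = 3.93e-04). P2ry13 had 24.7, 43.3 and 34.3 CPM and 28, 20.9 and 22.3 CPM, with overlap, since mouse 1 was not lower. Its log2 fold change was -0.57 (SE 0.21, adjusted p = 0.205) and -0.58 with the block (adjusted p = 0.0374, edgeR).

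Tmem119, Olfml3, Trem2 and Tyrobp did not pass the test in any of the settings run. Tmem119 had 42.9, 28.3 and 38.8 CPM at 0 Ccr2 UMIs and 43.8, 19.5 and 29.5 CPM at 2 or more, a log2 fold change of -0.22 with a 95% interval of -0.72 to 0.28. Olfml3 had 72.8, 76 and 97.8 CPM and 91.2, 50.2 and 100.5 CPM, with an interval of -0.40 to 0.44. These intervals are wide, so the main fit could not exclude a moderate difference in either gene. With the mouse as a block they were -0.62 to 0.07 for Tmem119 and -0.28 to 0.25 for Olfml3. Trem2 had 529, 523 and 566 CPM and 557, 502 and 523 CPM, with an interval of -0.22 to 0.28 around 0.03. Tyrobp had 2261, 2028 and 2299 CPM and 2161, 2115 and 2199 CPM, with an interval of -0.21 to 0.29 around 0.04. For Trem2 and its adaptor Tyrobp, a change as large as that of Fcrls lay outside the interval.

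Between 1 and 0 Ccr2 UMIs, 0 of 9 members were called by edgeR, against 0.0139% of all genes, and 2 members had an unadjusted p below 0.05, as did 338 of all 7215 genes. These were Fcrls, with a log2 fold change of -0.37 (interval -0.66 to -0.08), and Siglech, with -0.60 (interval -1.14 to -0.07). By DESeq2 and with the mouse as a block (0.79% of all genes called) 0 members were called as well. The class with 1 UMI held 163 cells in all.

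In the female mice, Fcrls and Siglech were again lower in macrophages with 2 or more Ccr2 UMIs, and P2ry12 did not pass the test. Of the 9 members, 2 were called lower and 0 higher by edgeR over 5666 genes, against 1.66% of all genes lower and 1.84% higher, and with the block the same number was called (2.7% of all genes lower, 3.19% higher). Fcrls had 870, 959 and 953 CPM in female mouse 1, 2 and 3 at 0 Ccr2 UMIs and 396, 410 and 326 CPM at 2 or more. The classes did not overlap, and the log2 fold change was -1.24 (SE 0.13, adjusted p = 1.14e-05, edgeR), lower in 3 of 3 mice. Siglech had 230, 206 and 218 CPM and 133, 111 and 163 CPM, also without overlap. Its log2 fold change was -0.65 (SE 0.16, adjusted p = 0.0288, edgeR), lower in 3 of 3 mice. The call was lost without mouse 1, 2 or 3 (adjusted p = 0.189, 0.197 and 0.0831, edgeR), with the change at -0.59, -0.57 and -0.78, and after thinning to 2000 UMIs (adjusted p = 0.133, edgeR), with the change at -0.86.

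P2ry12 had 36.5, 57.1 and 54.7 CPM in the female mice at 0 Ccr2 UMIs and 38.6, 44.6 and 19.9 CPM at 2 or more. The classes overlapped, and the log2 fold change was -0.44 with an interval of -1.02 to 0.14 (adjusted p = 0.571, edgeR). Gpr34 had 320, 328 and 271 CPM and 267, 305 and 236 CPM, a log2 fold change of -0.13 with an interval of -0.45 to 0.19. The remaining 5 members had log2 fold changes of -0.30 (P2ry13) to 0.01 (Tyrobp), none past the test.

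A difference between the sexes was tested directly, as the interaction of sex and Ccr2 class over 7011 genes. It was called for 0 of 9 members and for 0 of all genes (0%) by edgeR, with 155 genes and 0 members at an unadjusted p below 0.05. With the mouse as a block it was called for 1 gene, which was not a member. The female minus male difference was -0.14 for Fcrls (interval -0.53 to 0.25), 0.35 for Siglech (-0.25 to 0.95), 0.36 for Gpr34 (-0.11 to 0.83) and 0.32 for P2ry12 (-0.40 to 1.03). For Siglech the difference was -0.48 after thinning to 2000 UMIs. The sexes were thus not shown to differ. Among the genes given here, the intervals of P2ry12 and Gpr34 held differences larger than the male change, and that of Siglech reached close to it.

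**Figure D4:**
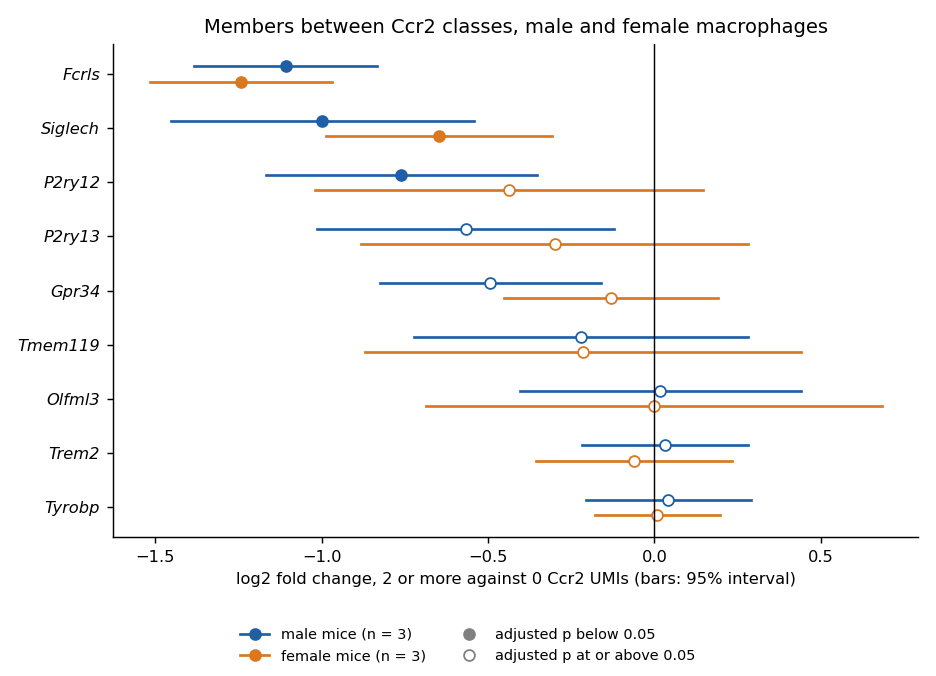
Log2 fold changes of the 9 members between macrophages with 2 or more and 0 Ccr2 UMIs (x axis) are plotted for 3 male (blue) and 3 female (orange) mice, with bars for the 95% interval of the edgeR fit and filled circles for an adjusted p below 0.05. Fcrls and Siglech are filled in both sexes, P2ry12 in the male mice, and Trem2 and Tyrobp lie at 0 in both.

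Of the other homeostatic microglia genes, 17 could be tested in the male mice, and 0 were called by edgeR (1.43% of all genes lower, 0.942% higher). An unadjusted p below 0.05 was found for 5 of the 17 and for 972 of all 7215 genes, and the median log2 fold change of the 17 was -0.12. With the mouse as a block 3 were called lower and 2 higher (4.62% and 4.81% of all genes), among them Mertk (-0.90) and Entpd1 (-0.45), which were lower, and Ctss (0.36), which was higher. Mertk, a receptor for the uptake of dying cells, had a log2 fold change of -0.89 in the main fit (interval -1.50 to -0.27, adjusted p = 0.134, edgeR) and of -0.996 in the female mice (interval -1.69 to -0.30, adjusted p = 0.128, edgeR), lower in 3 of 3 mice of each sex. The male interval holds the change of Fcrls, and the difference between these genes was not tested. Csf1r had a log2 fold change of -0.27 (SE 0.13) in the male and -0.29 (SE 0.12) in the female mice. Cx3cr1 had -0.15 (SE 0.18) in the male mice, lower in 3 of 3, and 0.27 (SE 0.13) in the female mice, higher in 3 of 3. Sparc had -0.59 (SE 0.37) in the male and 0.96 (SE 0.41) in the female mice, and its female minus male difference was 1.56 (interval 0.29 to 2.82, unadjusted p = 0.0180, edgeR). None of these passed the main test or the test of the difference between the sexes after adjustment. In the female mice 0 of 16 were called by edgeR (1.66% of all genes lower, 1.84% higher), with an unadjusted p below 0.05 for 6 of the 16 and for 767 of all 5666 genes, and Ctss (0.32) was among 2 called higher with the block (3.19% of all genes).

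Genes of border-associated macrophages were lower in the same cells. Of 16 listed, 12 fell and 0 rose in the male mice (1.43% of all genes lower, 0.942% higher), with a median log2 fold change of -0.82, and 12 of 16 fell in the female mice (1.66% of all genes lower) with a median of -0.84. Among those called in the male mice, the largest changes were those of Clec4n, a C-type lectin (-2.13, SE 0.17), Lyve1, the hyaluronan receptor of perivascular macrophages (-1.84, SE 0.48), and Clec10a, a galactose-type lectin (-1.38, SE 0.30). Lyve1 and Clec10a were also among the leading genes of a cluster of 11 macrophages led by Cd209g. Of its cells, 10 had 0 Ccr2 UMIs and 0 had 2 or more. The part of this cluster in the 2 changes was not tested. Cd38, an enzyme that uses NAD, had -1.52 (SE 0.43, adjusted p = 0.0707, edgeR) in the male mice, and was called in the female mice at -2.47 (adjusted p = 0.00347, edgeR). Clec4n had 122, 173 and 169 CPM at 0 Ccr2 UMIs and 26.7, 32.8 and 39.7 CPM at 2 or more, without overlap. Lyve1 (adjusted p = 0.0492) and Clec10a (adjusted p = 0.0139, edgeR) lost the call without mouse 1 (0.284 and 0.296) and without mouse 3 (0.0529 and 0.115). Lyve1 also lost it without the deepest 5% of macrophages (0.109). The same held without cells that had proliferation gene UMIs or 2 or more lymphocyte gene UMIs (0.0552). Cd163, F13a1, Cbr2, Stab1, Maf and Dab2 lost the male call without mouse 1 (adjusted p 0.105 to 0.481) and after thinning (0.137 to 0.51, edgeR). Mrc1 lost it without mouse 1 (0.157) and without mouse 2 (0.0633), and Pf4 without mouse 2 (0.0592, edgeR). In the male mice Clec4n and Ms4a7 passed in every setting that gave an adjusted p. Of the female calls, Clec4n, Lyve1, Pf4, Cbr2 and Maf passed in every such setting. Mrc1 and Stab1 passed in 7 of 8, and F13a1 and Ms4a7 in 6 of 8. Clec10a passed in 6 of 7, Cd38 in 5 of 6 and Dab2 in 4 of 8. At 2000 UMIs 14 of the 16 genes were above the background, and Lyve1 (2.54% of macrophages) and Cd38 were not. The list was drawn up with earlier results of these cells known, and it gives no independent evidence of direction.

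Genes of the Trem2 pathway and of lipid-associated macrophages moved both ways, although Trem2 itself did not pass the test. Of 18 listed, 13 could be tested and 3 rose and 1 fell in the male mice (0.942% of all genes higher, 1.43% lower), with a median log2 fold change of 0.11. Spp1, which encodes osteopontin, had 13, 36.5 and 47.5 CPM at 0 Ccr2 UMIs and 106, 105.3 and 149.8 CPM at 2 or more, a log2 fold change of 1.80 (SE 0.27). Lgals3 (1.14, SE 0.24), which encodes galectin-3, and the tetraspanin Cd9 (0.97, SE 0.15) also rose, and the lysosomal protease Ctsb fell (-0.56, SE 0.12). Ctsb lost the call without mouse 1 and without mouse 2 (adjusted p = 0.0818 and 0.257, edgeR), with the change at -0.55 and -0.50, and Cd9 without mouse 1 (0.0778), with the change at 0.92. Lgals3 lost it without mouse 1 (1.41, adjusted p = 0.0638, edgeR) and without mouse 2, where the change was 0.70 (adjusted p = 0.162, edgeR). After thinning, Spp1 (0.78, adjusted p = 0.504), Cd9 (0.41, 0.598) and Ctsb (-0.45, 0.0908, edgeR) did not pass, while Lgals3 was at 2.04 (0.00262). At a macrophage limit of 0.25% Lgals3 did not pass (0.65, adjusted p = 0.0836, edgeR). With the mouse as a block Lpl (1.25) was also called higher and Ctsd (-0.59) lower. In the female mice Spp1 (1.97) and Cd9 (0.86) rose and Ctsb (-0.69) and Ctsd (-0.66) fell. Of these female calls, Cd9 was lost without mouse 1 (0.79, adjusted p = 0.0962), without mouse 3 (0.63, 0.320) and after thinning (0.33, 0.796, edgeR), Ctsd without mouse 2 (-0.62, 0.170) and without mouse 3 (-0.69, 0.183), and Spp1 without mouse 3 (1.41, 0.107). The shares of macrophages with a Spp1 or Lgals3 UMI (8.87% and 6.67% at 2000 UMIs) were not above those of B-like cells (7.32% and 6.50%). Gpnmb had 0 UMIs in the macrophages, Cst7 3 and Itgax 14, and none of these 3 markers of lipid-laden microglia was above the background.

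Markers of monocytes other than Lyz2 were low in macrophages of both classes. Of 7 listed, only Lyz2 was above the background, with a UMI in 99.9% of thinned macrophages. In the male mice 3 could be tested, of which 1 rose. This was S100a4, a calcium-binding protein, with 7.8, 2.92 and 26.1 CPM at 0 Ccr2 UMIs and 37.7, 86.4 and 42.7 CPM at 2 or more, a log2 fold change of 1.97 (SE 0.42, adjusted p = 0.0144, and 0.217 without mouse 1 and 0.166 without mouse 2, edgeR). Without mouse 3 the change was 3.98, and after thinning the adjusted p was 0.0625 (edgeR). In the female mice S100a4 was also called higher (1.95, adjusted p = 0.0436, edgeR), with 2 of 3 mice higher, and it passed in 4 of 6 alternatives. With the block Lyz2 was called higher in the female mice as well (0.33, adjusted p = 0.00332, edgeR). Monocyte-like cells had 1207 to 1358 CPM of S100a4. The defining monocyte genes Ly6c2, Plac8 and Vcan had 40, 65 and 5 UMIs in all 1484 macrophages. The part of monocytes in the lower levels of Fcrls, Siglech and P2ry12 was not tested. Of the plasmacytoid DC genes, 2 could be tested and 0 were called by edgeR, with 1 at an unadjusted p below 0.05 and with the block Tcf4 was called lower (-0.43).

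The members also differed among the macrophage clusters, which are described without a test. The cluster of 79 macrophages led by DNA replication genes (Gins2, Mcm6, Mcm2) had 625, 601 and 1250.3 CPM of Fcrls in mouse 1, 2 and 3, with most of its cells from mouse 3. It was also deeper, with a median of 15769 UMIs per cell against 8068.5 in the cluster led by Ccl24 and Egfl7. A P2ry12 UMI was found in 36.7% of its cells against 30.9% in that cluster, but the pooled level was 40.2 against 51.2 CPM, so P2ry12 was not higher per UMI. Tmem119 was found in 34.2% of its cells, at 128, 0 and 36.4 CPM in mouse 1, 2 and 3. The cluster of 71 macrophages led by interferon-induced genes (Ifit3, Rsad2) had 47, 135 and 143 CPM of Gpr34, the lowest mean of the clusters, and 16 P2ry12 UMIs, all in mouse 3. Of all 75 cells of this cluster, 3, 9 and 63 came from mouse 1, 2 and 3, so mouse 1 and 2 rest on few cells. Its pooled Gpr34 level was 139 CPM, close to the 148 CPM of the cluster led by Cd209g. The 11 cells led by Cd209g, Cd209f and Lyve1 had 0 UMIs of Tmem119 and Olfml3. A P2ry12 UMI was found in 63.6% of these cells, with all 12 UMIs in the 9 cells of mouse 3 and 0 in the single cells of mouse 1 and mouse 2. Trem2 had means of 479 to 562 CPM and Tyrobp of 2054 to 2233 CPM in the clusters with more than 11 macrophages, a range narrower than that of Fcrls (270 to 1081 CPM).

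At 2000 UMIs, Gpr34, P2ry13, Olfml3 and Trem2 had a higher share of positive cells among macrophages with an Fcrls UMI than among those without in 3 of 3 mice, Siglech and P2ry12 in 2 of 3 and Tmem119 in 1 of 3, a description with no test. Macrophages with an Fcrls UMI had a Gpr34 UMI in 38.1% ± 4.5 and those without in 30.3% ± 6.9 at 2000 UMIs (SD, n = 3), higher in 3 of 3 mice. The same shares were 8.2% ± 2.3 and 6.5% ± 3.2 for P2ry12, higher in 2 of 3 mice, and 5.16% ± 1.45 and 6.24% ± 0.19 for Tmem119, higher in 1 of 3 mice. At full depth the shares for P2ry12 were 29.4% and 15.5%, but cells with Fcrls were also deeper (median of 8814 against 7813 UMIs).

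In the annotation (GRCm38, GENCODE M21), Fcrls (ENSMUSG00000015852) spans 87250758 to 87263738 on chromosome 3, whose minus strand also carries P2ry12 (59216272 to 59262871), P2ry13 (59207892 to 59210882) and Olfml3 (103722222 to 103738001). Tmem119 lies on chromosome 5 (113793729 to 113800516), Gpr34 on chromosome X (13632089 to 13640858), Trem2 on chromosome 17 (48346401 to 48354147), and Siglech (55768178 to 55778925) and Tyrobp (30413760 to 30417585) on chromosome 7. P2ry12 and P2ry13 overlap Med12l and Gpr34 overlaps Cask on the opposite strand. The strand setting of the counting is not given in the sources used here, and the values of these pairs are uncertain to that extent.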

How the data were processed

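The authors deposited raw UMI counts from Cell Ranger (3.1.0 in the file header, mm10), without normalization, as a matrix of 4395 barcodes with 6 hashtags and as a matrix of 2668 cells that they filtered and demultiplexed in Seurat. The 2668 barcodes are shared by both matrices, and 0 entries differed. HTODemux on all barcodes (284 doublets between animals removed) and the authors' filters (over 200 and under 5000 genes, under 5% mitochondrial UMIs) were applied again, and left these 2668 male and 1073 female cells. Each hashtag was taken as a mouse. Doublets within a mouse were not identified.

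Cells were clustered in Seurat 5.3.0 (2000 variable features, 15 components, resolution 0.5) without the 9 members, while Ccr2 and the C1q genes were not taken out. Clusters were named from marker lists, by a rule written after the clusters had been seen. UMIs were summed per mouse and Ccr2 class and tested with edgeR 4.0.16 (quasi-likelihood, TMM, filterByExpr), without Ccr2 and the C1q genes, which set the classes. DESeq2 1.42.0 was an alternative. On simulated sums for the male comparison (7215 genes), true changes were recovered in 15% of cases at a log2 size of 0.5 and in 73% at 1. Sums of a mouse come from the same animal, which pairs them. Their deviations were correlated at 0.0869, 0.331 and 0.381 in the male and 0.144, 0.0672 and 0.045 in the female mice.

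The members and lists were chosen with earlier results of these data known. The text names all members, fixed microglia genes and, of each list and direction, the 3 genes with the largest fold that passed the test and changed alike in each male mouse. Further listed genes are named where a call or a level limits what a list shows. Some genes that are counted in the lists are not reported here by name.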

Additional observations from a re-analysis of the deposited data

How the results depend on the processing

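Fcrls was called in both sexes under every alternative that was run, and no named gene that passed a test reversed its direction. In the male mice 171 genes were called, and 333 without a filter on low counts, 680 with the mouse as replicate block, 35 after thinning to 2000 UMIs, 269 without the deepest 5% of macrophages and 40 to 160 with a mouse left out. Of the members 3 were called, 5 with the block, 1 after thinning and 1 to 2 with a mouse left out. P2ry12, P2ry13 and Tmem119 were not tested in the male mice after thinning, because the filter on low counts removed them. Between 1 and 0 Ccr2 UMIs 1 gene was called, 40 without a filter, 2 by DESeq2, 57 with the block, 2 after thinning and 1 to 4 with a mouse left out. In the female mice 198 genes and 2 members were called, 334 genes with the block, 59 genes and 1 member after thinning, and 63 to 100 genes and 1 member with a mouse left out. The interaction gave 1 gene with the block. After thinning 174 male and 82 female macrophages remained with 2 or more Ccr2 UMIs, and a mouse left out leaves fewer sums. The cause of the other shifts was not tested.

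At 2000 UMIs the mean share of macrophages with a UMI was 58.1% for Fcrls (83.8% at full depth), 7.55% for P2ry12 (27.3%), 5.10% for P2ry13 (21.3%), 5.63% for Tmem119 (17.6%), 34.8% for Gpr34 (73.7%), 13.6% for Olfml3 (36.2%), 25.5% for Siglech (56.9%), 62.6% for Trem2 (93.9%) and 98.2% for Tyrobp (99.5%). A macrophage limit of 1% gave 74.6% for Gpr34. The block changed no other call of a member.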
